A study of Mus musculus with 48 samples.

Results

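The cadmium effect at 12 h was compared between the ectoderm and the mesoderm of the mouse forelimb bud, over 12 of the 48 arrays of the series. The arrays were chosen by their titles, and no measured value entered the choice. They form 4 groups of 3 arrays, namely ectoderm after cadmium, ectoderm after phosphate-buffered saline (PBS), mesoderm after cadmium and mesoderm after PBS. Pregnant mice had received cadmium sulfate at 4 mg/kg in PBS, or PBS alone, into the peritoneum on gestation day 9.5. The right forelimb buds were taken 12 h later, the layers were parted after treatment with 2% crude trypsin, and tissue from more than a single litter was combined, per the labels' protocols, although the sample descriptions call the RNA extracts individual. The strain is not given in the sources used here, and nothing in the labels says whether ectoderm and mesoderm with the same array number came from the same litters. Whether the arrays of a group hold separate tissue is not settled by the labels either. The p-values below thus measure only the spread between arrays, pooled over all 48 and not from these 12 alone. That spread may be technical. The other arrays hold the same tissues 3 h after cadmium or PBS, and acetazolamide with its oil control at both times.

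Each value is a ratio to the PBS arrays of that layer at 12 h, taken here as log2, so that 0 is the PBS level. For every probe set PBS arrays 1 and 2 averaged 1 and PBS array 3 was 1, so array 3 of each PBS group carries no information of its own. That cadmium arrays 1 and 2 were divided by the first pair and cadmium array 3 by the third PBS array is an inference from this pattern. No expression level remains in such values. The tissue labels could therefore not be checked against ectoderm or mesoderm markers, no level could be compared between tissues, and the 8252 genes tested include genes at background. In such bulk RNA, fewer cells of a type and less RNA per cell cannot be told apart.

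Limb outgrowth depends on exchange between the layers. The apical ridge of the ectoderm secretes fibroblast growth factors that keep the mesoderm growing, and the mesoderm supplies Fgf10 that maintains the ridge. Cadmium is a toxic metal that binds thiols. Metallothioneins are small cysteine-rich proteins that bind zinc and cadmium, and their genes respond to metals through the factor Mtf1 acting at metal response elements. The factor p53 responds to DNA damage and other stress and raises genes that halt the cell cycle, among them Cdkn1a and Ccng1.

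The gene with the largest fall and those with the largest rises in the mean over the layers belong to these systems, so their promoters are shown, from RefSeq on GRCm38.p6, 250 bases before to 50 after the start. In the metallothionein promoters, Mt2 at chr8:94172368-94172667 and Mt1 at chr8:94178839-94179138, both on the plus strand, capitals mark TGCNCNC on either strand. This pattern is a looser form of the core of the metal response element, so a match need not be that core.
Mt2: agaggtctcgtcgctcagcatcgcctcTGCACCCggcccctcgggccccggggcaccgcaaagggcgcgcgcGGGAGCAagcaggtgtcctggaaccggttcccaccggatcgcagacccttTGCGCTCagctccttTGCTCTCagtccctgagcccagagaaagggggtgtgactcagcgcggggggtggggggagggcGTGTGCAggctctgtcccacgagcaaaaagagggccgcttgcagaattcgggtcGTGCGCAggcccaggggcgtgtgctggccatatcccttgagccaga
Mt1: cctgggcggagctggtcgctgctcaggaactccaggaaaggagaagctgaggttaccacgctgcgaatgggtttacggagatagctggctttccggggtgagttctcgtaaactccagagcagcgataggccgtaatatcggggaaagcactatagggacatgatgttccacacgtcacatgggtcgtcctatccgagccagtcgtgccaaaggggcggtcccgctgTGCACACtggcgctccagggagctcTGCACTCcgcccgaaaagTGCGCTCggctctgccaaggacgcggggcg
The Mt2 window held 6 separate matches and the Mt1 window 3. Of 27025 promoters of this length, 50.4% held at least 1 match, 6.27% at least 3 and 0.13% at least 6. In the promoters of Ccng1 at chr11:40755237-40755536, minus strand, and of Cdkn1a at chr17:29090729-29091028, plus strand, capitals mark the p53 half-site on either strand.
Ccng1: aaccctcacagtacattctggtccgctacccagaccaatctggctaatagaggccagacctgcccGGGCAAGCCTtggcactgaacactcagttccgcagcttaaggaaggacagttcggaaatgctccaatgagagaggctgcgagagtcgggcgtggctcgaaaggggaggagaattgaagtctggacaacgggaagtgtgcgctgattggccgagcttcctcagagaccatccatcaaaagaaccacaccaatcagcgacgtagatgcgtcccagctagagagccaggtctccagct
Cdkn1a: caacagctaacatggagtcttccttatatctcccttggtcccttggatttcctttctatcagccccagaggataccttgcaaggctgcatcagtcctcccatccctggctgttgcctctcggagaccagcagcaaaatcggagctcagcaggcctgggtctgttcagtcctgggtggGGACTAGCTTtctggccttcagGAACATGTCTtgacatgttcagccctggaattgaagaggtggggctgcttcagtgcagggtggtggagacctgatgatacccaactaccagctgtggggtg
The Ccng1 window held 1 such stretch and this Cdkn1a window 2, and 8.37% of promoters held at least 1 and 0.318% at least 2. A second Cdkn1a start in RefSeq had none in its window. Phlda3, the other of the 3 largest rises, had none in its window (chr1:135765835-135766134) and is not printed. A match describes the letters of the window and is not a measured binding site.

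The arrays of the 2 layers differed in spread. The residual SD of the ectoderm comparison was 0.223 on the log2 scale and that of the mesoderm comparison 0.115, and the log2 ratios of cadmium ectoderm array 3 had an SD of 0.543 over genes against 0.203 to 0.351 on the other 5 cadmium arrays. Array medians lay between -0.02 and 0.10, the highest on cadmium ectoderm array 3. The Gapdh 3' minus 5' probe difference, a sign of RNA integrity relative to the vehicle, was 1.80 on cadmium ectoderm array 2 and between -0.71 and 0.44 on the others. The same difference for beta-actin was 0.08 on cadmium ectoderm array 2, within the -0.23 to 0.40 of the ectoderm PBS arrays. The part of these array differences in the results was not tested.

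Cadmium changed 88 of 8252 genes in the mean over both layers at an adjusted p under 0.05, or 1.07% (limma, Benjamini-Hochberg adjusted over all genes). Of these, 27 rose (0.327% of genes) and 61 fell (0.739%), and all 88 had the same sign in ectoderm and mesoderm. A choice on the mean favours effects of the same sign, so this agreement is in part set by the choice. Over all genes 67.1% shared the sign. In 59 of the 88, the 3 cadmium arrays lay beyond the 3 PBS arrays on the same side in each layer, a pattern that 204 of all genes (2.47%) showed, 68 higher (0.824%) and 136 lower (1.65%). For each probe set PBS array 3 never lies outside PBS arrays 1 and 2, so it adds nothing to this pattern for genes with 1 probe set. For the 2076 genes averaged over more probe sets, PBS array 3 can be the highest PBS value. The same arrays gave the calls, so the pattern lends them no separate support. The mean and the difference both took the arrays of the 2 layers as independent. Should same-numbered arrays of the layers share litters, the p-values of the mean could be too small. With the replicate number as a block, 52 of the 88 kept their call. By itself the mesoderm gave 188 calls (2.28%), 87 higher (1.05%) and 101 lower (1.22%), and the ectoderm 2 (0.0242%), 1 in each direction, with 367 genes at an unadjusted p under 0.05 (4.45%). Of the 88 genes, 64 were called in mesoderm by itself and 23 in neither layer by itself. The mesoderm count was 58 without array 3 of either mesoderm group, 99 without cadmium mesoderm array 2 and 361 without cadmium mesoderm array 1, and the ectoderm count was 0 without array 3 of either ectoderm group, 1 without cadmium ectoderm array 1 or PBS ectoderm array 2, 20 without cadmium ectoderm array 2 and 90 without PBS ectoderm array 1. The count for the mean also rested on single arrays. It was 21 without array 3 of either ectoderm group, 47 without cadmium ectoderm array 1, 456 without cadmium ectoderm array 2 and 436 without PBS ectoderm array 1. It was 154 without cadmium mesoderm array 1. Fitted without the other arrays of the series, these 12 gave 0 calls and 865 genes with an unadjusted p below 0.05. In all 12 fits that each left out 1 of these arrays, 21 genes kept their call, among them Mt2, Ccng1, Cdkn1a, Mcam, Tmem43, Coq3, Mrps2, Znrd1, Nek7, Uqcc3 and Vps4a. Within a layer, leaving out array 3 of the cadmium group or of the PBS group gave the same result. Tallies over these 12 fits, here and below, therefore hold that result more than once.

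**Figure D1:**
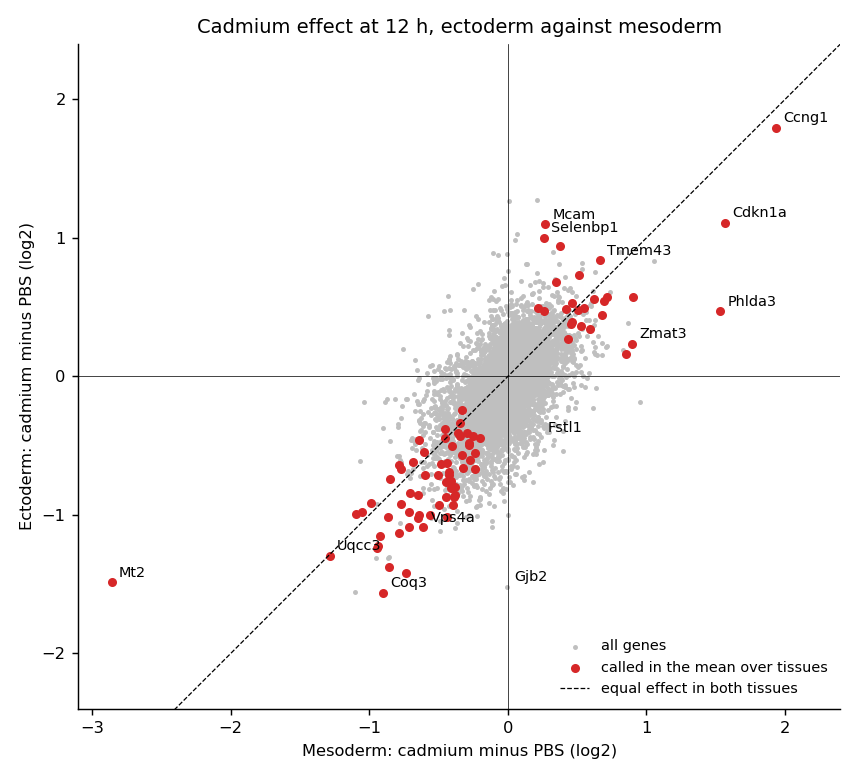
Cadmium minus PBS effect at 12 h of each of 8252 genes (grey points), mesoderm on the x axis and ectoderm on the y axis, both log2. The 88 genes called in the mean over layers are red and all lie in the lower left or upper right quadrant, which a choice on the mean favours. Mt2 and Phlda3 lie on the mesoderm side of the dashed line of equal effect and Mcam on the ectoderm side.

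Mt2, which encodes a metallothionein, fell the most in the mean. Its log2 ratio on the cadmium arrays was -1.92, -1.86 and -0.73 in ectoderm and -3.27, -2.96 and -2.52 in mesoderm. The PBS arrays 1 and 2 held -0.32 and 0.26 in ectoderm and -0.60 and 0.42 in mesoderm. Every cadmium array was thus below every PBS array of its layer, and every mesoderm cadmium array was below every ectoderm cadmium array. The effect was -1.49 ± 0.41 (SE) in ectoderm, a 2.80-fold lower ratio, and -2.86 ± 0.21 in mesoderm, a 7.25-fold lower ratio. The mean over layers was -2.17 ± 0.23 (adjusted p = 2.94e-06). The difference between layers was 1.37, with a 95% interval of 0.43 to 2.32, and did not pass the test across genes (adjusted p = 0.9997).

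Mt1, the neighbouring metallothionein gene, was called lower in mesoderm only, a statement about each test and not about the difference. Its mesoderm cadmium arrays held -0.93, -0.94 and -0.45, all below the PBS arrays (effect -0.76 ± 0.14, adjusted p = 0.00205). In ectoderm they held -0.38, -0.43 and 0.16, which overlapped PBS (effect -0.22 ± 0.28). The difference of 0.55 had an interval of -0.09 to 1.19. Of 21 measured genes for metallothioneins and metal transport, 1 was called lower in the mean, Mt2, where 0.739% of all genes were. None was called higher. Their median effect was 0.06 in ectoderm and 0.03 in mesoderm, near the median of all genes (0.03 and 0.01). Mtf1 itself had effects of 0.07 ± 0.18 and 0.03 ± 0.09. The zinc exporter gene Slc30a1, another target of Mtf1, had -0.27 ± 0.12 in ectoderm and -0.22 ± 0.06 in mesoderm and did not pass in the mean (adjusted p = 0.0974).

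The 3 largest rises in the mean, Ccng1, Cdkn1a and Phlda3, were targets of p53. Ccng1, the cyclin G1 gene, held 2.12, 2.62 and 0.64 on the ectoderm cadmium arrays and 2.38, 1.64 and 1.73 on the mesoderm ones, all above PBS. Its effects of 1.80 ± 0.52 in ectoderm and 1.94 ± 0.27 in mesoderm gave a mean of 1.87 ± 0.29 (adjusted p = 0.000427), a 3.65-fold rise. The difference of -0.14 had an interval of -1.33 to 1.05, so a difference of more than 2-fold either way could not be told from none.

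Cdkn1a encodes p21, an inhibitor of cyclin-dependent kinases. Its log2 ratio was 0.83, 0.72 and 1.75 in ectoderm and 1.23, 1.71 and 1.76 in mesoderm after cadmium, with no overlap with PBS (mean 1.34 ± 0.22, adjusted p = 0.000613). The gene value averaged 2 probe sets that disagreed on the layers. One gave 0.93 in ectoderm and 2.58 in mesoderm, and the other 1.29 and 0.55, so their ectoderm minus mesoderm differences were -1.65 and 0.74. No order of the layers can be read for this gene.

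Phlda3, a repressor of Akt signalling, and Zmat3, a zinc finger gene, were higher on all 3 mesoderm cadmium arrays and overlapped PBS in ectoderm. Phlda3 held 1.38, 1.80 and 1.38 in mesoderm and 0.98, -0.37 and 0.79 in ectoderm. Its difference was -1.06 (interval -1.95 to -0.18) and that of Zmat3 -0.66 (interval -1.19 to -0.13), neither of which passed (adjusted p = 0.9997 for each). Their rise in the mean passed (1.003 ± 0.22, adjusted p = 0.0122, and 0.57 ± 0.13, adjusted p = 0.0215). Both calls were lost without cadmium ectoderm array 1 (adjusted p = 0.147 for Phlda3 and 0.172 for Zmat3) or array 3 of either ectoderm group (0.210 and 0.056). That of Zmat3 was also lost without array 3 of either mesoderm group (0.0734).

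Btg2, an antiproliferative gene, rose in the mean by 0.37 ± 0.09 (adjusted p = 0.0383), with ectoderm arrays at 0.24, 0.56 and 0.62 and mesoderm arrays at 0.07, 0.35 and 0.35. This small rise was called in 4 of the 12 fits without an array; the adjusted p was 0.433 without array 3 of either ectoderm group, 0.102 without array 3 of either mesoderm group, 0.0857 without cadmium mesoderm array 2, 0.0578 without PBS ectoderm array 2, 0.052 without PBS mesoderm array 1 and 0.0515 without cadmium ectoderm array 1. Over 24 measured p53 targets, these 5 rose, where 0.327% of all genes did, and none fell. The list's median effect was 0.17 in ectoderm (0.11 without array 3 of the cadmium group) and 0.16 in mesoderm (0.08 without array 3 of the cadmium group), and 18 of the 24 were above 0 in the mean, against 58.2% of all genes. The p53 inhibitor gene Mdm2 was near 0 in both (-0.05 ± 0.24 and 0.04 ± 0.12). Sesn1, another target, had -0.89 ± 0.27 in ectoderm and -0.20 ± 0.14 in mesoderm and did not pass in the mean (adjusted p = 0.0857).

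**Figure D2:**
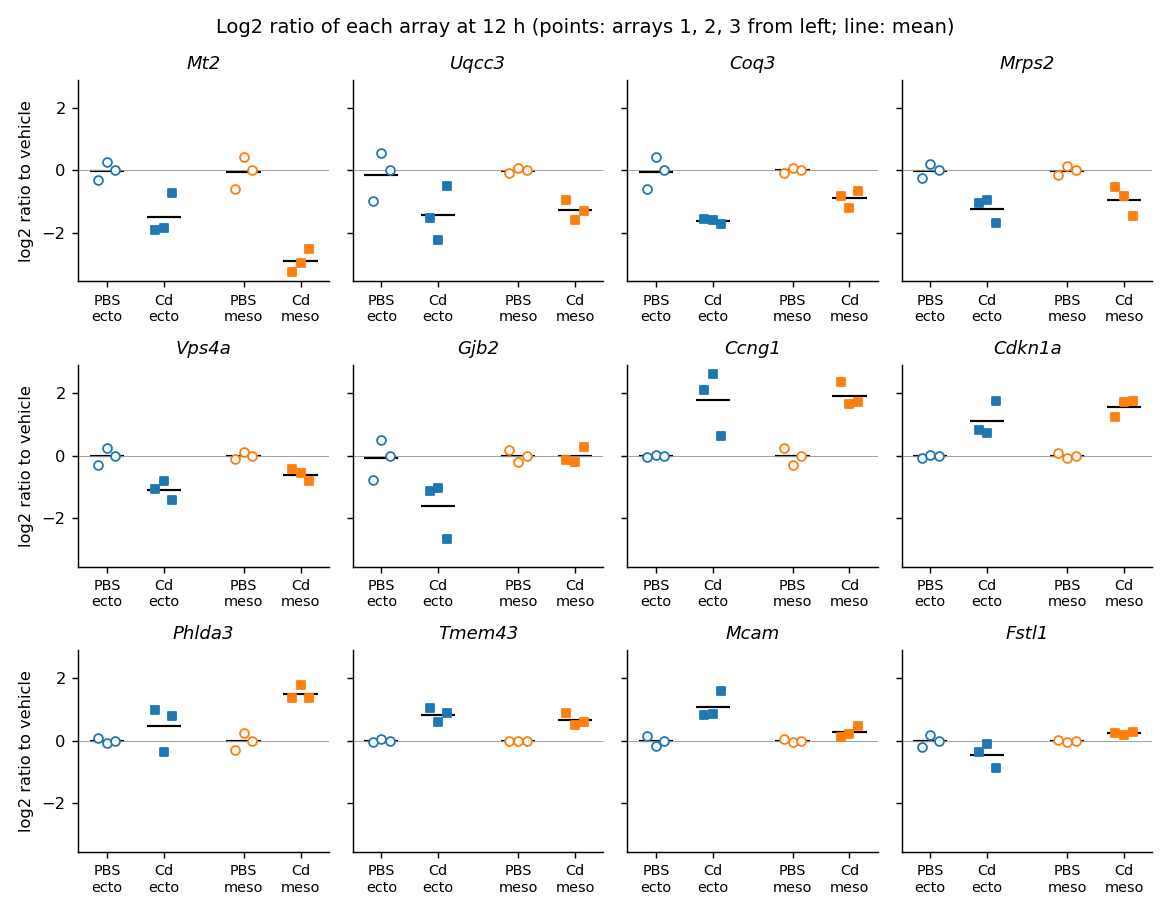
Log2 ratio to the vehicle of 12 genes on each of the 12 arrays, PBS as open circles and cadmium as filled squares, ectoderm blue and mesoderm orange, with a line at each group's mean. Mt2 reaches -3.27 in mesoderm and -1.92 in ectoderm, Ccng1 lies above PBS on every cadmium array, Gjb2 is below PBS in ectoderm only, and Fstl1 lies on opposite sides in the layers.

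Among the other genes that rose, Mcam, which encodes the endothelial and pericyte adhesion molecule CD146, was called in ectoderm by itself. It held 0.83, 0.85 and 1.60 on the ectoderm cadmium arrays and 0.13, 0.20 and 0.48 on the mesoderm ones, with PBS between -0.16 and 0.14. The effect was 1.10 ± 0.16 in ectoderm (adjusted p = 0.000983), 0.27 ± 0.08 in mesoderm (adjusted p = 0.0758) and 0.69 ± 0.09 in the mean (adjusted p = 4.85e-05). Tmem43, a gene for a protein of the inner nuclear membrane, was alike in the layers. Its arrays held 1.05, 0.59 and 0.88 in ectoderm and 0.90, 0.50 and 0.59 in mesoderm, and the mean was 0.75 ± 0.13 (adjusted p = 0.00158). The other genes that the rule for named genes picked among the largest rises were Dpysl4, Prrg2, Kank3, Hpcal1, Rnase4 and Rtn2, with means of 0.49 to 0.74. They kept their call in 4 to 10 of the 12 fits without an array. All 6 lost it without array 3 of either ectoderm group, at an adjusted p of 0.0661 for Dpysl4, 0.0546 for Prrg2, 0.504 for Kank3, 0.206 for Hpcal1, 0.577 for Rnase4 and 0.559 for Rtn2. Without cadmium ectoderm array 1, Kank3 (0.0822), Hpcal1 (0.0617), Rnase4 (0.104) and Rtn2 (0.205) lost it, and Rnase4 and Rtn2 also without cadmium mesoderm array 2 (0.0648 and 0.0911), PBS mesoderm array 1 (0.0635 and 0.0624) or array 3 of either mesoderm group (0.0891 and 0.0732). Rtn2 lost it without PBS mesoderm array 2 too (0.0501).

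Genes of several roles fell in the mean. Coq3, an enzyme of coenzyme Q synthesis, held -1.56, -1.58 and -1.72 in ectoderm and -0.83, -1.21 and -0.66 in mesoderm after cadmium. It was below PBS throughout, and the mean was -1.23 ± 0.20 (adjusted p = 0.000763). Mrps2, a protein of the small mitochondrial ribosomal subunit, held -1.05, -0.95 and -1.70 in ectoderm and -0.54, -0.84 and -1.45 in mesoderm (mean -1.08 ± 0.16, adjusted p = 0.000291). Both genes are thus lower on every cadmium array, with a larger fitted fall in ectoderm that did not pass as a difference.

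Of 48 measured respiratory chain genes, 2 fell in the mean, where 0.739% of all genes did, and none rose. They were Uqcrc2 and Uqcc3, which encode a core subunit and an assembly factor of complex III. Uqcrc2 held -0.85, -0.76 and -1.71 in ectoderm and -0.66, -0.61 and -0.88 in mesoderm (mean -0.90 ± 0.16, adjusted p = 0.00169). Its call was lost without array 3 of either ectoderm group (adjusted p = 0.0962). Uqcc3 fell alike in both layers (-1.29 ± 0.36 and -1.28 ± 0.19, mean -1.29 ± 0.20, adjusted p = 0.0005). Its ectoderm arrays, at -1.52, -2.25 and -0.51, overlapped PBS, which reached -0.97. The whole list did not move with them: 32 of 48 were above 0 in the mean, against 58.2% of all genes, and the median was 0.09, which ranged from 0.003 without cadmium ectoderm array 1 to 0.13 without cadmium ectoderm array 2.

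Znrd1, a subunit of RNA polymerase I, held -1.08, -1.34 and -1.03 in ectoderm and -0.83, -0.49 and -1.07 in mesoderm (mean -0.96 ± 0.14, adjusted p = 0.000265). Nek7, a kinase known from mitosis and the inflammasome, held -1.13, -0.43 and -1.21 in ectoderm and -0.84, -0.95 and -1.17 in mesoderm (mean -0.95 ± 0.15, adjusted p = 0.000348). The remaining genes that the rule named for the largest falls in the mean were Azin1, Pfn2, Ogt, Eif4a2 and Zscan26, with means of -1.09 to -1.02. Each was below PBS on every cadmium array of both layers, and each lost its call without array 3 of either ectoderm group (adjusted p = 0.610 for Azin1, 0.168 for Pfn2, Eif4a2 and Zscan26, and 0.159 for Ogt). Azin1 also lost it without cadmium ectoderm array 1 (0.123), cadmium mesoderm array 2 (0.0617) and array 3 of either mesoderm group (0.0873), and Pfn2 without cadmium ectoderm array 1 (0.0507). Among other genes called lower in the mean were Atf6 (-0.38), Gclc (-0.39) and Fkbp5 (-0.45). Gclc and Fkbp5 lost the call without array 3 of either ectoderm group (adjusted p = 0.359 and 0.213) or without cadmium ectoderm array 1 (0.0970 and 0.166). Fkbp5 lost it in further fits without an array.

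A change in both layers at once was asked for by taking the larger of each gene's 2 p-values where the signs agreed. Vps4a passed, 1 gene of 8252 (0.0121%, adjusted p = 0.0427), and 171 genes had an unadjusted p under 0.05 (2.07%), 39 higher and 132 lower. Vps4a encodes an ATPase that disassembles the membrane-cutting ESCRT-III complex. Its cadmium arrays held -1.08, -0.82 and -1.42 in ectoderm and -0.45, -0.56 and -0.83 in mesoderm, beyond PBS in each (effects -1.09 ± 0.19 and -0.61 ± 0.10). No gene passed without cadmium ectoderm array 1, PBS ectoderm array 2, cadmium mesoderm array 2, PBS mesoderm array 2 or array 3 of any of the 4 groups, and 12 passed without PBS ectoderm array 1.

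The 88 called genes were not of one size in the layers. Of the 61 that fell, 47 had the larger fitted fall in ectoderm, with medians of -0.76 in ectoderm and -0.50 in mesoderm. Of the 27 that rose, 10 had the larger fitted rise in ectoderm, with medians of 0.49 and 0.53. The interval of the difference left out 0 for 9 of the 88. The 188 genes called in mesoderm were chosen on effects from mesoderm arrays, with errors that draw on all arrays of the fit, and their count was 139 without PBS ectoderm array 1 and 154 without PBS ectoderm array 2. The sign was shared by the ectoderm effect for 175 of them, where 67.1% of all genes shared it, and 63 had ectoderm cadmium arrays beyond PBS on that side. Their median effect was 0.53 in mesoderm and 0.34 in ectoderm in the mesoderm's direction. Those that rose had medians of 0.53 in mesoderm and 0.23 in ectoderm, and those that fell -0.56 and -0.44. The mesoderm medians are raised by that choice.

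No gene passed as different between the layers (0%, limma, adjusted p under 0.05), 114 had an unadjusted p under 0.05 (1.38%), and the smallest adjusted p was 0.495. The share of 1.38% is less than the threshold of 0.05 itself. The errors of this contrast may thus be overstated, its intervals too wide and its test conservative. With limma's array weights, whose estimation did not fully converge, 6 passed. The design measured the difference coarsely. The median half-width of its 95% interval was 0.47, and the interval lay within 1 log2 unit of 0, a 2-fold difference, for 6992 genes (84.7%) and within 0.5 for 2683 (32.5%). For those genes a larger difference than the bound lies outside the interval, and for the rest it does not.

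The 5 genes in each direction with the smallest p are given as not passing. Higher in ectoderm were Mcam (difference 0.83, interval 0.47 to 1.19), Mt2, Cit (1.001, 0.39 to 1.61), Abcb1b (0.43, 0.14 to 0.73) and Utp20 (0.44, 0.14 to 0.73). Cit encodes the citron kinase of cell division and Abcb1b a drug efflux pump. Cit held 0.75, 0.35 and 1.49 in ectoderm and -0.15, 0.08 and -0.27 in mesoderm, so the ectoderm arrays lay above PBS and the mesoderm arrays among PBS. Utp20, a factor of ribosome assembly, was instead near 0 in ectoderm (0.22, 0.04 and -0.01) and below PBS in mesoderm (-0.28, -0.41 and -0.37).

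Lower in ectoderm were Gjb2, Dlx1, Dffa, Map2k6 and Fstl1. Gjb2, which encodes the gap junction protein connexin 26 of epithelia, had the largest difference of the 10, -1.51 (interval -2.39 to -0.63). It held -1.12, -1.04 and -2.68 in ectoderm, below PBS at -0.79 to 0.51, and -0.13, -0.20 and 0.29 in mesoderm. Dlx1, a homeobox gene, held -0.90, -0.08 and -1.10 in ectoderm and 0.10, 0.22 and 0.13 in mesoderm, overlapping PBS in each, with mesoderm PBS at -0.13 to 0.12. Without PBS ectoderm array 1, whose log2 value for Gjb2 was -0.79, Gjb2 and Mcam passed as different (adjusted p = 0.0186 and 0.0105).

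Opposite movement was rare. Of 172 genes with an unadjusted p under 0.05 in each layer, 171 had the same sign and 1, Fstl1, the opposite. Fstl1 encodes a secreted glycoprotein related to follistatin that binds BMP ligands. It held -0.36, -0.10 and -0.88 in ectoderm, overlapping PBS at -0.19 to 0.17, and 0.26, 0.17 and 0.29 in mesoderm, above PBS at -0.04 to 0.04. Its effects of -0.44 and 0.24 did not pass in either layer (adjusted p = 0.983 and 0.286). Cadmium arrays beyond PBS on opposite sides in the 2 layers occurred for 13 genes (0.158%), against 204 on the same side.

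**Figure D3:**
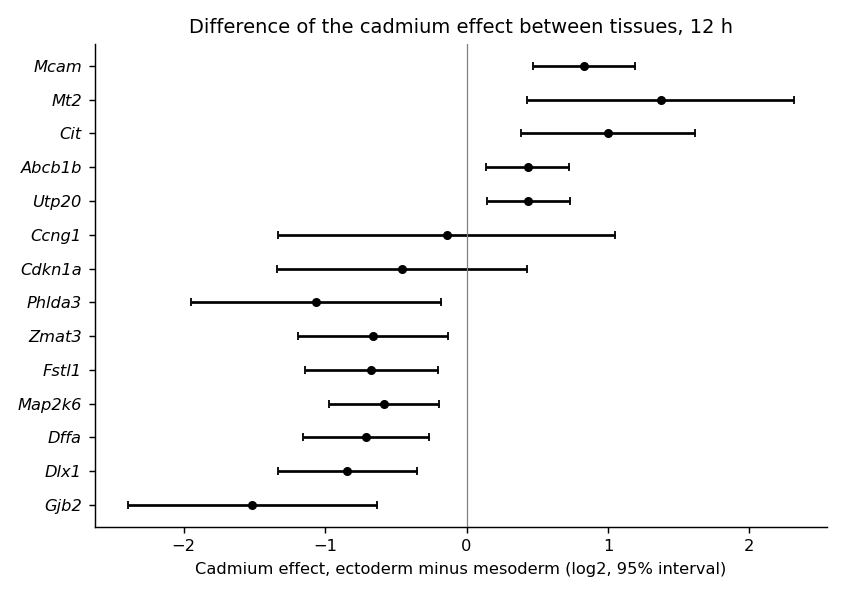
Ectoderm minus mesoderm difference of the cadmium effect (log2, x axis) for 14 genes, as points with 95% intervals. The 10 genes with the smallest p, Mcam to Utp20 and Fstl1 to Gjb2, have intervals that leave out 0 without passing the test across genes, while those of Ccng1 and Cdkn1a include it.

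Over all 8252 genes the ectoderm and mesoderm effects had a Pearson r of 0.57 and a Spearman rho of 0.49, and 5534 genes (67.1%) had the same sign. These are descriptions across genes of 1 array design, and genes are not independent replicates. A jackknife over arrays gave an SE of 0.37 for r and of 15.8 percentage points for the shared sign. The SD of effects over genes was 0.27 in ectoderm and 0.20 in mesoderm, with medians of 0.03 and 0.01. Agreement in sign went with size. It was 58.0% for genes with a mesoderm effect under 0.1 in size, 73.7% from 0.1 to 0.25, 84.7% from 0.25 to 0.5 and 93.7% from 0.5 to 1, and all 11 genes over 1 agreed. Binned by ectoderm effect it ran from 55.4% to 43 of 43 genes. These 43 genes had a median effect of 1.09 in ectoderm and of 0.56 in mesoderm in the same direction, and the 11 genes over 1 in mesoderm had 1.10 there and 0.99 in ectoderm. The median in the layer used for choosing is raised by the choice in each case.

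The agreement was then read between array blocks that share no vehicle array, with cadmium arrays 1 and 2 set against their PBS arrays and cadmium array 3 against its own. Within ectoderm these blocks correlated at r = 0.32 and within mesoderm at 0.50. Across layers the pairs with different array numbers gave 0.35 (ectoderm 1 and 2 with mesoderm 3) and 0.54 (ectoderm 3 with mesoderm 1 and 2), and those with the same numbers 0.22 and 0.46. At 12 h, blocks of different layers thus correlated from below to above the blocks within a layer. At 3 h the blocks within a layer gave -0.11 and -0.01, and across layers 1 of 4 pairs was above 0.1, arrays 1 and 2 of each layer at 0.57. With arrays 1 and 2 only, r between layers at 12 h was 0.22 and 52.3% of genes had the same sign. Leaving out 1 array moved r between 0.31 (without array 3 of either ectoderm group) and 0.65 (without cadmium mesoderm array 1).

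**Figure D4:**
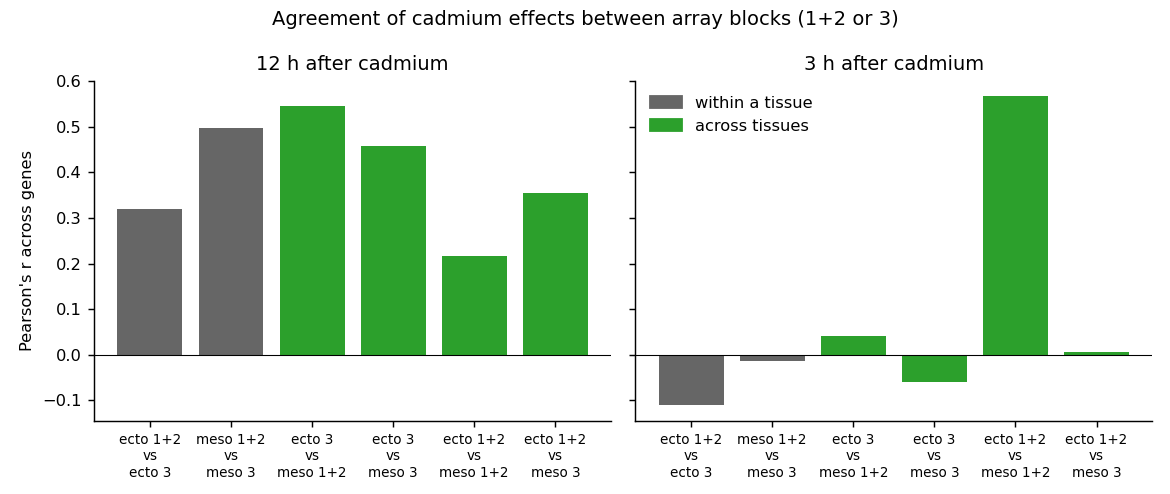
Pearson's r across 8252 genes between cadmium effects of array blocks (1+2 for arrays 1 and 2, 3 for array 3), at 12 h on the left and 3 h on the right, within a tissue in grey and across tissues in green. At 12 h all 6 values lie between 0.22 and 0.54, while at 3 h the value of 0.57 for arrays 1 and 2 of the 2 tissues stands above the other 5, which lie between -0.11 and 0.04.

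Genes were then chosen in a block and read in the others, and the result depended on the block. The 100 genes with the lowest effect on mesoderm arrays 1 and 2 (median -0.68) had a median of -0.65 on mesoderm array 3 (96 below 0), -1.07 on ectoderm array 3 (98 below 0) and -0.23 on ectoderm arrays 1 and 2 (71 below 0). The 100 highest (median 0.58) had 0.33, 0.78 and 0.11, with 86, 89 and 70 above 0. Ectoderm array 3 thus held larger values of both signs for genes picked in mesoderm than mesoderm array 3 did, and ectoderm arrays 1 and 2 held smaller ones. Chosen on ectoderm arrays 1 and 2 instead, the 100 highest (median 0.51) had medians of only 0.03 on mesoderm arrays 1 and 2 (56 above 0) and 0.08 on mesoderm array 3 (61 above 0), and of 0.22 on ectoderm array 3 (68 above 0). The 100 lowest on these arrays had -0.30 and -0.47 in the mesoderm blocks, with 81 and 91 below 0.

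Lists of pathway genes were described by counts and medians. Mitosis genes had the lowest median of the lists in ectoderm. The median over 40 genes was -0.37 in ectoderm and -0.08 in mesoderm, with 4 and 13 above 0 respectively, and 5 of 40 had the higher value in ectoderm (3 to 13 when 1 array was left out), against 53.2% of all genes. In the mean 2 of the 40 fell, where 0.739% of all genes did, and none rose, the cyclin gene Ccna2 (-0.49 ± 0.12, adjusted p = 0.0394) and the centrosome kinase gene Nek2 (-0.71 ± 0.16, adjusted p = 0.0226). Ccna2 held -0.47, -0.68 and -0.83 in ectoderm and -0.28, -0.28 and -0.41 in mesoderm, all below PBS. Its call was kept in 5 of 12 fits without an array and that of Nek2 in 6, and both had an adjusted p of 0.433 without array 3 of either ectoderm group. Without cadmium ectoderm array 1 the values were 0.0931 and 0.145, and without array 3 of either mesoderm group 0.094 and 0.0682. Ccna2 lost its call also without cadmium mesoderm array 2 (0.0617) or PBS mesoderm array 2 (0.0501), and Nek2 without PBS ectoderm array 2 (0.0651). The list's ectoderm median ranged from -0.52 without PBS ectoderm array 1 to -0.21 without PBS ectoderm array 2. Its mesoderm median ranged from -0.15 without cadmium mesoderm array 1 to -0.01 without cadmium mesoderm array 3, where 18 of 40 genes were above 0. DNA replication genes, 46 in number, had medians of -0.17 and -0.06 and no call.

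Splicing and RNA-binding genes had medians of -0.33 in ectoderm and -0.14 in mesoderm over 47 genes. These medians moved to -0.18 without array 3 of the cadmium ectoderm group and to -0.07 without PBS mesoderm array 1. In the mean 7 of the 47 were above 0, against 58.2% of all genes, 14 had an unadjusted p under 0.05, against 12.5%, and 0 passed (limma). Of all genes 1.22% were called lower in mesoderm by itself. There Rbm25 (-1.06 ± 0.23, adjusted p = 0.00894) and Hnrnpk (-0.70 ± 0.19, adjusted p = 0.049), which encode RNA-binding proteins of the nucleus, passed. Neither did without array 3 of either mesoderm group (adjusted p = 0.267 and 0.399), nor Hnrnpk without cadmium mesoderm array 2 (0.179) or PBS mesoderm array 1 (0.134). Rbm25 held -0.45, -0.92 and -1.83 in mesoderm, below PBS, and -0.61, -0.91 and -0.44 in ectoderm, where PBS reached -0.53.

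Markers of other cell types that each layer could hold were read the same way, as differences from the vehicle and not as levels. Endothelial markers lay above 0 in ectoderm for 24 of 24 genes and in mesoderm for 21 of 24, with medians of 0.15 and 0.20 (19 to 24 and 18 to 23 genes when 1 array was left out), where 57.6% and 54.5% of all genes lay above 0. The medians were 0.07 without PBS ectoderm array 2 and 0.11 without cadmium mesoderm array 3. The list's medians on single cadmium arrays ran from 0.03 to 0.19 in ectoderm and from 0.09 to 0.42 in mesoderm, against -0.15 to 0.14 and -0.05 to 0.05 on PBS arrays 1 and 2. In the mean 1 of the 24 rose, Mcam, where 0.327% of all genes did. In mesoderm by itself 4 of the 24 rose, Tie1, Eng, Vwf and Sox7, where 1.05% of all genes did. Tie1 was called without each of the 6 mesoderm arrays, but the others were not without array 3 of either mesoderm group (adjusted p = 0.313 for Eng, 0.227 for Vwf and 0.404 for Sox7). Eng was not without cadmium mesoderm array 2 (0.0831) or PBS mesoderm array 1 (0.129), and Sox7 not without PBS mesoderm array 2 (0.0539). Tie1, an endothelial receptor kinase, held 0.40, 0.75 and 0.66 in mesoderm, above PBS, and 0.02, 0.22 and 0.39 in ectoderm, overlapping it (difference -0.42, interval -0.94 to 0.10). The values of Mcam above stand beside these, and the part of endothelial cells in them was not tested. For red blood cells 16 of 17 markers were above 0 in the mean (median 0.07), for macrophages 19 of 22 (0.04) and for endoderm and yolk sac 20 of 22 (0.07), with no call in the mean, against 58.2% of all genes above 0. The red cell median was 0.004 without cadmium mesoderm array 3, and 10 to 16 of its genes were above 0 when 1 array was left out. For macrophages 15 to 20 genes were then above 0, and for endoderm and yolk sac 14 to 21. The lowest median of each of these lists was 0.02, without PBS ectoderm array 2. In mesoderm by itself 2 of 17 red cell genes were called higher, where 1.05% of all genes were. They were Alas2, an enzyme of heme synthesis (0.53 ± 0.12, adjusted p = 0.0169), and Nfe2 (0.40 ± 0.11, adjusted p = 0.0425). Neither was without array 3 of either mesoderm group (adjusted p = 0.380 and 0.474), nor Nfe2 without cadmium mesoderm array 2 (0.122) or PBS mesoderm array 1 (0.145).

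Markers of the layers themselves moved little. Surface ectoderm genes had medians of -0.01 in ectoderm and 0.06 in mesoderm over 35 genes, apical ridge genes 0.03 and 0.02 over 21, and limb mesoderm genes 0.11 and -0.02 over 26, with no gene called. In the limb mesoderm list 22 of 26 had the higher value in ectoderm (16 to 22 when 1 array was left out), against 53.2% of all genes, with a median difference of 0.12 that ranged from 0.06 to 0.19 when 1 array was left out. The largest difference was that of Twist1, a mesenchymal transcription factor gene, at 0.61, 0.31 and 1.72 in ectoderm and -0.46, 0.46 and -0.31 in mesoderm (difference 0.95, interval 0.01 to 1.89, adjusted p = 0.9997). Fgf8, the ridge signal, had effects of 0.24 ± 0.36 and -0.11 ± 0.19, and Fgf10 0.14 ± 0.14 and 0.00 ± 0.07. Shh, the signal of the posterior limb margin, had 0.10 ± 0.17 and 0.04 ± 0.09.

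**Figure D5:**
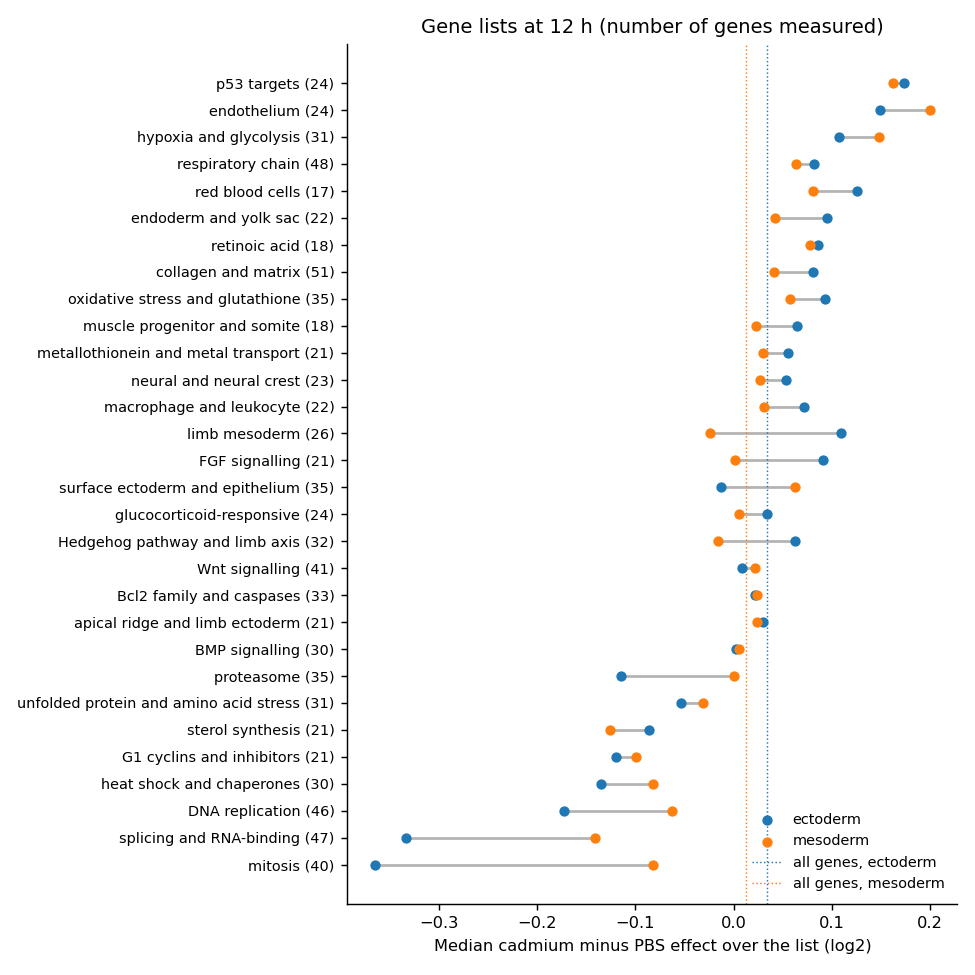
Median cadmium minus PBS effect (log2, x axis) of each of 30 gene lists in ectoderm (blue) and mesoderm (orange), with the number of genes measured and dotted lines at the medians of all genes. In ectoderm mitosis (-0.37) and splicing genes (-0.33) lie lowest, and in mesoderm splicing genes (-0.14) do, with mitosis genes at -0.08, and p53 targets and endothelial markers lie highest.

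The 12 h effect was last set against the 3 h effect of the same layers, on separate arrays. The mean over layers differed between the times for 38 genes (0.460%), 11 higher and 27 lower at 12 h, and 33 of these were among the 88. Both choices use the same 12 h arrays, so this overlap is in part built in and lends no separate support. At an unadjusted p under 0.05 there were 779 (9.44%). Mt2 fell by 2.60 on this contrast (log2) (adjusted p = 6.87e-06), Ccng1 1.85 higher (adjusted p = 0.00986) and Cdkn1a 1.504 higher (adjusted p = 0.00429). The count was 12 without array 3 of either 12 h ectoderm group, 22 without cadmium ectoderm array 1, 90 without cadmium ectoderm array 2, 79 without cadmium mesoderm array 1 and 120 without PBS ectoderm array 1. The difference between layers changed between the times for no gene (0%), with 86 at an unadjusted p under 0.05 (1.04%, limma), again a share below the threshold itself.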

How the data were processed

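The authors deposited, for each of 48 Affymetrix MG-U74Av2 arrays, a linear ratio per probe set to the vehicle of the same tissue and time, as the values themselves show. The software behind the ratios, any background correction and any filter are not given in the sources used here. Of 12488 probe sets, 10855 named 1 gene in GEO's platform annotation, 396 several and 1237 none. Log2 ratios were averaged over the probe sets of a gene, giving 8252 genes, with no pseudocount or filter. All 48 arrays entered 1 limma 3.58.1 fit (R 4.3.3), with a mean per vehicle block, 8 agent effects, weights from each comparison's residual variance and 24 residual degrees of freedom, then eBayes. Genes were called at a Benjamini-Hochberg adjusted p under 0.05 over all genes, and intervals are at 95%. The fit was tested on simulated data whose errors were drawn independently for each array. Such data cannot show the effect of shared litters or of a single deviant array. The number of arrays limits the precision.

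For the mean over layers the rule named up to 10 called genes a direction whose cadmium arrays lay beyond PBS in each layer. It named up to 10 genes called in both layers, the 5 with the smallest p for the difference in each direction, up to 5 of opposite sign, and from each list its called members or the 4 with the smallest p. Mt1, Mdm2, Mtf1, Slc30a1, Sesn1, Tie1, Eng, Vwf, Sox7, Shh, Fgf8, Fgf10, Selenbp1 and the genes of the closing observations were chosen after their values were seen. The comparison and the gene lists were chosen with earlier results of these data known. Alternatives covered weights, blocks, array 3, probe sets, centring and leaving out each array.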

Additional observations from a re-analysis of the deposited data

Results flagged for a closer look

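Probe sets that name several genes or none took no part in the comparisons. Fitted by themselves, 8 of these 1633 probe sets passed in 12 h mesoderm (limma, adjusted p under 0.05), 7 higher and 1 lower. None passed in ectoderm, in the mean or in the difference, where 33, 114 and 15 had an unadjusted p under 0.05. They were set apart because they show a signal in data outside the comparisons.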

How the results depend on the processing

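Comparison weights and blocks change only the errors and not the estimates. The count for the mean, 88, was 179 without comparison weights, 1265 with limma's array weights, 14 from arrays 1 and 2 and 0 from a fit of the 12 arrays alone; centring, single probe sets, no vehicle block and a random pool block gave 70 to 132. Leaving out 1 array gave 21 to 456. The mesoderm count, 188, was 22 without weights, 29 from arrays 1 and 2 and 19 from the 12 arrays, and 58 (without array 3 of either mesoderm group) to 361 (without cadmium mesoderm array 1) without 1 array. The ectoderm count, 2, was 89 without weights, 483 with array weights, 1 after centring and 0 from arrays 1 and 2 or the 12 arrays, and 0 (without array 3 of either ectoderm group) to 90 (without PBS ectoderm array 1) without 1 array. The difference kept 0 calls except for 6 with array weights (Cit, Dlx1, Gjb2, Map2k6, Mcam and Selenbp1) and 0 to 2 without 1 array. The count for both layers, 1, was 29 with array weights, 2 over probe sets, 0 after centring, without weights, from arrays 1 and 2 or from the 12 arrays, and 0 to 12 without 1 array. The 12 h against 3 h count, 38, was 59 without the vehicle block and 12 to 120 without 1 array. No named gene changed direction in the mean.

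Array numbers are shared by the groups, but same-numbered arrays did not deviate together throughout: the array 1 minus array 2 values correlated at -0.16 and 0.09 between layers (cadmium, PBS) and at -0.20 (ectoderm) and 0.65 (mesoderm) between cadmium and PBS. With the replicate number as a block the mean gave 60 calls, of which 52 were among the 88, the mesoderm 459, and the ectoderm, both layers and the difference 0 each. The 12 h against 3 h count was then 34.

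Array values are ratios, so signal over background is unknown and dim genes could not be set aside. The causes of these changes were not tested.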

Other observations

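Other genes called in the mean over layers share known roles, read off after their values were seen and with no test of a group. Besides Znrd1, Polr1b, a further subunit of RNA polymerase I, fell by 0.34 on the log2 scale (adjusted p = 0.0257, limma) and Taf1b, a subunit of the factor that places this polymerase on ribosomal DNA, fell by 0.80 (adjusted p = 0.00355). On the cadmium arrays Polr1b held -0.09, -0.43 and -0.49 in ectoderm and -0.27, -0.48 and -0.29 in mesoderm, and Taf1b -0.86, -0.33 and -1.04 and then -0.69, -1.20 and -0.65, all below PBS. Without array 3 of either ectoderm group neither passed (adjusted p = 0.386 and 0.0962). Polr1b was also lost without cadmium mesoderm array 2 (0.0636) or PBS mesoderm array 1 (0.052).

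Mdm4, which encodes an inhibitor of p53, fell in the mean by 0.38 (adjusted p = 0.0373), with effects of -0.48 in ectoderm and -0.28 in mesoderm. It kept this call in 4 of 12 fits without an array, with adjusted p from 0.0598 to 0.472 in the other 8. The gene value averaged probe sets of unlike size. One had -0.12 in ectoderm and -0.07 in mesoderm, and the other -0.84 and -0.50.

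In the surface ectoderm list, Trp63, which encodes the master regulator of stratified epithelium p63, held -0.23, -0.40 and -2.43 on the ectoderm cadmium arrays and 0.10, -0.14 and 0.03 on the mesoderm ones. The low value is that of ectoderm array 3. The claudin gene Cldn6 held -0.85, -1.05 and -0.37 in ectoderm, below PBS, and 0.19, -0.06 and 0.18 in mesoderm. Their differences of -1.004 (95% interval -1.96 to -0.04) and -0.86 (-1.55 to -0.17) did not pass. Other genes of this list lay on the other side, among them the keratin genes Krt19 and Krt17 with ectoderm effects of 0.70 and 0.33, and 17 of its 35 genes were above 0 in ectoderm (median -0.01).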
